A study of Mus musculus with 6 samples.

Results

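DQ52 is the diversity (D) gene that lies nearest to the joining (J) genes of the mouse immunoglobulin heavy-chain locus, and it is named IGHD4-1 in the deposited files and Ighd4-1 in RefSeq. Its joins were taken as every sequence whose first D call, with the allele removed, begins with IGHD4-. There were 13970 of them among 228609 sequences, of which 216021 had a D call and 12588 had none. The remaining 202051 called sequences, here the joins of other D genes, were mainly of the DFL16 family (IGHD1, 90743 sequences), the DSP2 family (IGHD2, 95900 sequences) and DST4 (IGHD3, 13258 sequences).

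The sequences are heavy-chain V(D)J joins read by VDJ-seq from the genomic DNA of B cells taken from the spleens of C57BL/6 mice, 12 weeks old. In all 6 libraries the B cells had been enriched by magnetic depletion of other cells. The starting DNA was 500 ng, 1 µg, 2.5 µg or 5 µg in 4 of them, and a pair named Q5_vent and Q5_Q5 differed in the DNA polymerases, with no DNA amount in the sources used here. Each library was the only one of its group, and neither the number of mice nor which libraries share DNA is given in the sources used here. The p-values below therefore measure only the spread between these libraries, which may be technical, and the purity of the B cells could not be checked on DNA joins.

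As background, a heavy-chain gene is assembled in developing B cells by joining a D gene to a J gene and then a V gene to that DJ join. The recombinase cuts beside each gene, nucleases trim the ends, and terminal transferase adds bases that no gene encodes (N bases). The stretch across the joins forms CDR3, the loop of the heavy chain at the centre of the antigen-binding site. DQ52 is the shortest of the mouse D genes and is known for germline transcription from its own promoter before rearrangement and for frequent use in early B-cell development. A join counts a DNA copy, so a cell can give both a productive and a non-productive join.

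The germline sequence is shown first because trimming, reading frame and encoded residues all follow from it. In GRCm38, the build that the submitters' processing notes name (mm10), RefSeq places Ighd4-1 at chr12:113430528-113430538, a D segment of 11 bases. The letters, in the direction from V to J, came from the deposited sequences: 936 of 938 joins that kept all 11 bases read the same. In the lines below capitals mark the whole codons of each reading frame, with the frame named by the germline base at which its codons start.

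frame 1: CTAACTGGGac
frame 2: cTAACTGGGAc
frame 3: ctAACTGGGAC

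Frame 1 encodes the residues LTG. Frame 2 opens with the stop codon TAA at bases 2 to 4 and goes on as LG, so a join in frame 2 can encode a chain only if that codon has been trimmed. Frame 3 encodes NWD. The 4 J genes lie on the other side of DQ52 from its neighbouring D genes: Ighj1 (chr12:113429781-113429833) is separated from it by 694 bases, Ighj2 (chr12:113429468-113429515) by 1012, Ighj3 (chr12:113429085-113429132) by 1395 and Ighj4 (chr12:113428514-113428567) by 1960. The nearest other D gene, the DST4 gene Ighd3-2, is 17675 bases away, and the DFL16 gene Ighd1-1 is 51631 bases away.

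DQ52 made up a nearly constant share of every library. The 500 ng library held it in 521 of 8704 sequences (5.99%, Wilson 95% interval 5.51 to 6.50) and the 1 µg library in 1071 of 17055 (6.28%, 5.93 to 6.65). The 2.5 µg library held 3489 of 56006 (6.23%, 6.03 to 6.43) and the 5 µg library 6729 of 112320 (5.99%, 5.85 to 6.13). Q5_vent held 1224 of 19490 (6.28%, 5.95 to 6.63) and Q5_Q5 936 of 15034 (6.23%, 5.85 to 6.62). All 6 intervals overlapped. Intervals cover counting error only.

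With 1 library per group, the effects of DNA input and of polymerase on DQ52 joins have no replicate check. The share of DQ52 differed by 0.00517 percentage points between 5 µg and 500 ng (95% interval -0.512 to 0.522) and by -0.0543 points between Q5_Q5 and Q5_vent (-0.569 to 0.461). Of 12 measures of DQ52 joins compared in each pair (share, J partners, productive share, lengths and frames), 1 had an interval that left out 0. Between 5 µg and 500 ng this was the share joined to Ighj3, 25.1% against 21.1% (difference 4.00 points, 0.348 to 7.66). Between the polymerase pairs it was the productive share, 84.5% in Q5_Q5 against 80.8% in Q5_vent (difference 3.71 points, 0.508 to 6.91). All other tests compare classes of joins inside the same library, DQ52 against other D genes or productive against out-of-frame DQ52 joins, so that both share depth, input and chemistry.

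DQ52 was joined to Ighj2 more often than other D genes were and to Ighj1 and Ighj4 less often, while for Ighj3 the direction depended on which joins were counted. Ighj2 was the partner in 39.0%, 39.3%, 38.5% and 36.7% of DQ52 joins from the lowest to the highest DNA amount (500 ng to 5 µg), and in 39.8% and 40.4% in Q5_vent and Q5_Q5. Joins of other D genes gave 30.7%, 29.8%, 29.0%, 28.0%, 32.4% and 29.9% in the same order. The lowest library for DQ52 was thus above the highest for other D genes. The mean was 38.9% ± 1.29 (SD, n = 6 libraries) against 29.96% ± 1.48, a difference of 8.98 points (range over libraries 7.43 to 10.5, exact two-sided sign-flip permutation test over 6 libraries, p = 0.0312, adjusted p = 0.0312 over 4 J genes). This is the smallest p that 6 libraries can give (2 of 64 sign patterns).

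The 4 shares are parts of 1 whole, and the other J genes had lower shares. Ighj1, the J gene closest to DQ52, was the partner in 15.4% ± 1.23 of its joins and in 18.8% ± 0.602 of other joins (difference -3.38 points, -4.90 to -1.04), and Ighj4 in 22.8% ± 0.997 and 26.5% ± 0.631 (difference -3.68 points, -4.52 to -2.36). For both genes all DQ52 values lay below all values of other D genes. Ighj3 was the partner in 22.8% ± 1.66 and 24.8% ± 0.915 (difference -1.92 points, -3.72 to -0.902), lower in 6 of 6 libraries but with ranges that overlapped between libraries. The exact permutation test gave p = 0.0312 and adjusted p = 0.0312 for each. The Ighj3 difference was 1.20 points with calls naming 1 D gene, 1.33 in out-of-frame joins and -0.819 with D alignments of at least 8 bases (exact permutation, adjusted p = 0.0625, 0.219 and 0.125). Within DQ52 joins Ighj2 was first and Ighj1 last in every library, while Ighj3 (21.1% to 25.1%) and Ighj4 (22.0% to 24.7%) did not differ beyond their spread.

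**Figure D1:**
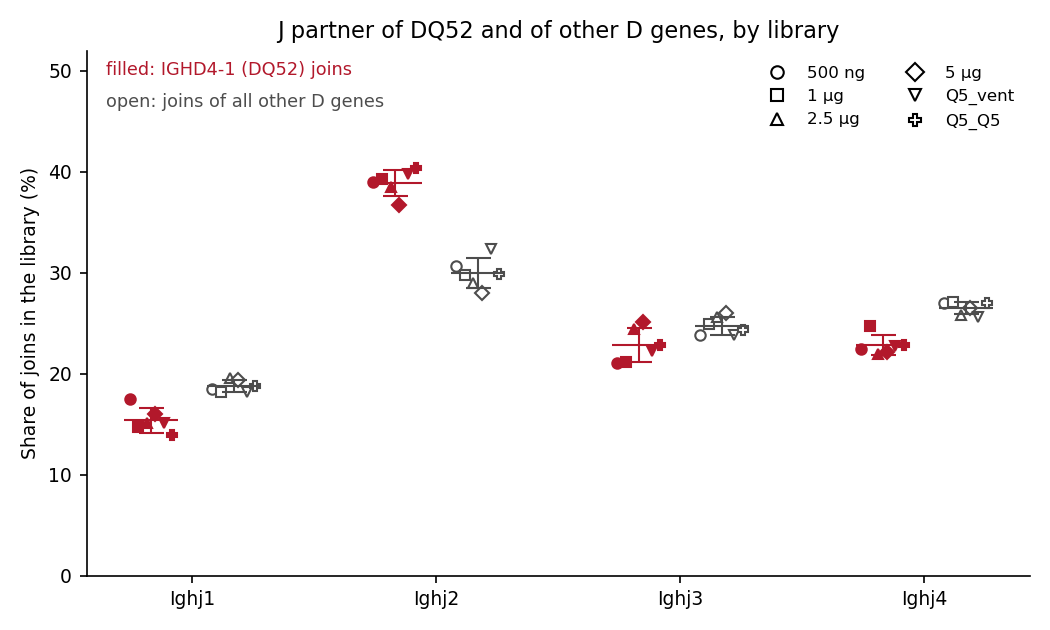
Share of each J gene (y axis, percent of joins in a library) among DQ52 joins (filled) and joins of other D genes (open). Symbols are the 6 libraries, bars the mean and SD; DQ52 lies at 36.7% to 40.4% for Ighj2, above the 28.0% to 32.4% of other D genes.

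Set against single D families, the higher share of Ighj2 was found each time and the other J genes differed in direction. Ighj2 was at 32.3% in DFL16 joins, 27.4% in DSP2 joins and 32.3% in DST4 joins, so that DQ52 was higher by 6.63, 11.5 and 6.59 points (exact permutation test over 6 libraries, adjusted p = 0.0312, 0.0417 and 0.0312). Ighj4 was lower with DQ52 than with any of the 3, by -1.32, -5.33 and -6.63 points with the same adjusted p-values. Ighj1 was at 24.9% with DFL16, 14.6% with DSP2 and 7.75% with DST4, against which DQ52 differed by -9.46, 0.842 and 7.65 points, the middle one not past the test (adjusted p = 0.188). Ighj3 was at 18.7%, 29.8% and 30.4%, and DQ52 differed by 4.16, -7.01 and -7.61 points. DQ52 thus lay between DFL16 and DST4 for Ighj1 and between DFL16 and the other 2 families for Ighj3, and outside all 3 for Ighj2 and Ighj4.

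The J partners also differed between productive and out-of-frame DQ52 joins. A productive join keeps V and J in 1 reading frame without a stop codon, and an out-of-frame join does not encode a heavy chain. Ighj1 was at 16.4% ± 1.50 of productive and 10.5% ± 1.77 of out-of-frame joins (difference 5.98 points, 3.12 to 8.60), and Ighj4 at 23.8% ± 1.26 and 18.0% ± 2.64 (5.78 points, 0.353 to 9.20). Ighj3 went the other way, with 21.1% ± 1.97 and 30.5% ± 2.43 (-9.40 points, -13.5 to -6.93). All 3 had p = 0.0312 and adjusted p = 0.0417 over 4 J genes by the exact permutation test. Ighj2 was at 38.7% ± 1.50 and 41.0% ± 2.27 (-2.36 points, -5.20 to 2.55, p = 0.125, exact permutation). The 3 calls were lost with 1 count per clone (adjusted p = 0.0625, 0.0833 and 0.0625 for Ighj1, Ighj4 and Ighj3, exact permutation), where the differences were 5.92, 5.18 and -9.27 points.

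DQ52 was trimmed more at its 5′ end, which faces V, than at its 3′ end, which faces J. On average 2.40 ± 0.0342 bases were missing at the 5′ end and 0.970 ± 0.0165 at the 3′ end, a difference of 1.43 (range over libraries 1.37 to 1.48, higher at the 5′ end in 6 of 6, exact permutation p = 0.0312). Base 1 was kept in 16.2% ± 0.808 of joins and base 11 in 53.1% ± 0.656. The core of the gene was kept nearly always, with base 6 in 99.4% and base 7 in 98.2% of joins. That core is partly set by the alignment, since the shortest D alignment in the files has 5 bases (50 joins read 4 once calls of allele 02 were renumbered, as described for the alleles).

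**Figure D2:**
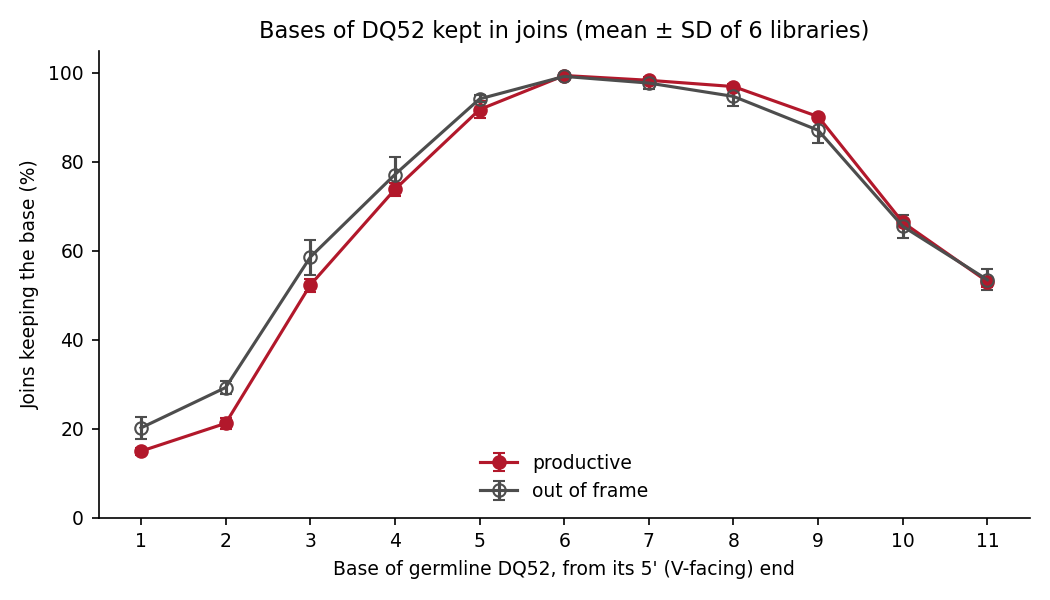
Percent of DQ52 joins that keep each germline base (x axis, base 1 to 11 from the end that faces V; y axis, mean and SD of 6 libraries) in productive and out-of-frame joins. Base 6 is kept most (99.4% of all joins) and base 1 least (16.2%).

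The aligned part of DQ52 averaged 7.63 ± 0.0364 bases, and the whole gene was seen in 938 joins (6.71%). The step between bases 2 and 3 was steep: base 2 was kept in 23.1% and base 3 in 53.6% of joins, and 4307 joins began exactly at base 3. Of these, 1292 were calls of allele 02 put on the numbering of allele 01, as described for the alleles. In productive joins bases 2 and 3 were kept in 21.2% and 52.3%, and in out-of-frame joins in 29.3% and 58.6%. Other D genes lost 4.52 bases at the 5′ end and 3.24 at the 3′ end, so DQ52 lost 2.12 and 2.27 fewer (fewer in 6 of 6 libraries, exact permutation p = 0.0312, adjusted p = 0.0365 over 7 lengths). The files cannot show a larger loss for a gene as short as DQ52, so this difference is bounded by its length.

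The deposited calls named allele 01 alone in 3232 DQ52 joins (23.1%), allele 02 alone in 1292 (9.25%) and both in 9446 (67.6%). The alleles are shown because they differ at the 5′ end, where most trimming fell. Capitals mark the whole of each gene.

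IGHD4-1 allele 01: CTAACTGGGAC
IGHD4-1 allele 02: CAACTGGGAC

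The calls of allele 02 alone all began at its first base. A join of allele 01 trimmed to base 3 and preceded by C reads the same as allele 02. Among joins that began at base 3 in the numbering of allele 01 and had at least 1 base between V and D, the preceding base was C in 1292 of 4021 (32.1%), G in 47.8% and A in 20.1%. Those 1292 joins are the calls of allele 02 alone, so this count cannot test which allele they carry. The calls were put on the numbering of allele 01, a choice that was not tested. The choice enters the 5′ trimming, the aligned lengths, the kept bases and the leading stretches of DQ52. Bases between V and D follow the deposited calls unless stated otherwise.

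Fewer bases lay between V and DQ52 than between V and other D genes pooled, and no difference was detected on the D to J side, where single families differed in opposite directions. The untemplated stretch between V and D averaged 3.95 ± 0.0546 bases for DQ52 and 4.36 ± 0.0153 for other D genes, a difference of -0.411 (-0.463 to -0.319, exact permutation p = 0.0312, adjusted p = 0.0365). Between D and J the means were 3.27 ± 0.0815 and 3.29 ± 0.0175 (difference -0.0196, -0.0903 to 0.167, p = 0.656, exact permutation). Against single families the V to D stretch was shorter than in DFL16 joins (4.51) and DSP2 joins (4.34) and longer than in DST4 joins (3.57), each with p = 0.0312 by the exact permutation test. The D to J stretch was longer than in DFL16 joins by 0.309 bases and shorter than in DSP2 and DST4 joins (differences of -0.289 and -0.335), also with p = 0.0312 each (exact permutation). It was longer than in all other joins by 0.283 bases with calls naming 1 D gene and by 0.207 with D alignments of at least 8 bases (exact permutation, adjusted p = 0.0312 and 0.0365). Within DQ52 joins the V to D stretch was longer than the D to J stretch by 0.683 bases (0.511 to 0.812, exact permutation p = 0.0312). With the first base of allele 02 calls counted as untemplated, the V to D difference from other D genes was -0.319 (adjusted p = 0.0625, exact permutation).

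D to J joins without any added base were counted for each J gene, with no test between J genes. No base lay between DQ52 and J in 18.7% ± 2.71 of joins to Ighj1, 11.7% ± 1.50 to Ighj2, 15.4% ± 0.981 to Ighj3 and 15.0% ± 2.69 to Ighj4. Joins of other D genes had 23.7%, 15.2%, 9.89% and 11.6% in that order. DQ52 was therefore lower on average with Ighj1 and Ighj2 and higher with Ighj3 and Ighj4, differences that were not tested. With each clone counted once per library, Ighj4 was at 12.7% ± 2.69 with DQ52 and 11.6% ± 0.485 with other D genes. The most frequent such joins are given here from DQ52 to the end of CDR3, with the bases aligned to D in capitals.

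Ighj1: AACTGGGactggtacttcgatgtc
Ighj2: AACTGGGactactttgactac
Ighj3: AACTGGGcctggtttgcttac
Ighj4: AACTGGttactatgctatggactac

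The first was in 40 of 422 direct joins to Ighj1 (39 clones, a clone being all sequences with 1 CDR3, J gene and V gene), the second in 62 of 626 to Ighj2 (57 clones) and the third in 39 of 510 to Ighj3 (39 clones). The join to Ighj4 was in 104 of 490 and belonged to 1 clone, described below. In the joins to Ighj1 and Ighj2 the letters ac after the capitals are also the last letters of germline DQ52, so they can be assigned to either gene. Direct joins in which the D alignment stopped 2 bases short and was followed by AC were 163 of 422 with Ighj1 (38.6%), 250 of 626 with Ighj2 (39.9%), 0 of 510 with Ighj3 and 73 of 490 with Ighj4 (14.9%). For these 486 joins the 3′ trimming given above counts 2 bases that the sequence does not show to be lost. Joins that stop 1 base short and go on with c, the last letter of DQ52, were not counted. The 2nd most frequent direct join to Ighj3 is of that kind (32 of 510).

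Joins with no base on either side of D made up 2.18% ± 0.330 of DQ52 joins and 1.41% ± 0.0257 of other joins. The difference of 0.764 points was positive in 6 of 6 libraries (0.284 to 1.29, exact permutation p = 0.0312, adjusted p = 0.0365). It was 0.109 points (adjusted p = 0.547, exact permutation) without clones found in 2 or more libraries and 0.0292 points (adjusted p = 0.812, exact permutation) with the first base of allele 02 calls counted as untemplated.

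The CDR3 of DQ52 joins was shorter than that of other joins. In productive joins its mean was 33.9, 34.0, 33.8 and 33.9 bases from the lowest to the highest DNA amount, 34.2 in Q5_vent and 34.1 in Q5_Q5, while other D genes ranged from 38.7 to 38.8. The ranges were far apart. The means over libraries were 34.0 ± 0.133 and 38.7 ± 0.0689 bases (difference -4.75, -4.97 to -4.49), and in out-of-frame joins 33.6 ± 0.419 and 39.2 ± 0.175 bases (difference -5.62, -6.18 to -5.32). Both had p = 0.0312 and adjusted p = 0.0365 in the exact permutation test.

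DQ52 joins were also shorter than those of each family. Productive CDR3 averaged 40.2 bases with DFL16, 37.9 with DSP2 and 35.2 with DST4, so that DQ52 was shorter by -6.27, -3.92 and -1.24 bases (exact permutation p = 0.0312 each). Over sequences of all libraries, productive DQ52 CDR3 had a median of 33 bases and its 5th and 95th percentiles were 27 and 42, against 39, 30 and 51 for other D genes. DQ52 is itself shorter than the other D genes, and the aligned D averaged 7.63 bases in its joins, 13.6 in DFL16 joins, 10.9 in DSP2 joins and 9.15 in DST4 joins. The part of D length in the CDR3 difference was not tested.

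**Figure D3:**
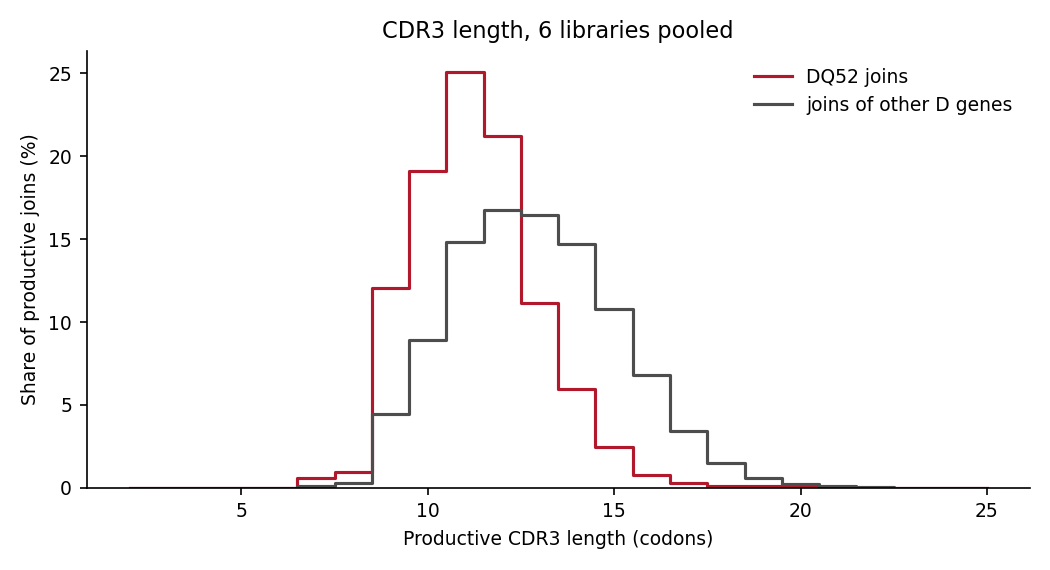
Distribution of productive CDR3 length (x axis, codons; y axis, percent of productive joins of that class, 6 libraries pooled) for DQ52 and for other D genes. The DQ52 curve lies to the left, with medians of 33 and 39 bases.

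A larger part of DQ52 joins was productive. The productive share was 82.0%, 83.9%, 83.4% and 83.2% in order of DNA amount, 80.8% in Q5_vent and 84.5% in Q5_Q5. Joins of other D genes ranged from 71.5% to 72.7%, below every DQ52 value. The means were 83.0% ± 1.36 and 72.0% ± 0.476 (difference 10.99 points, 9.21 to 12.3). Out-of-frame joins were 15.0% ± 0.945 against 23.2% ± 0.278 (-8.17 points), and joins in frame but not productive, as with a stop codon, 2.05% ± 0.495 against 4.87% ± 0.221 (-2.82 points). All 3 differences had the same sign in 6 of 6 libraries, with p = 0.0312 and adjusted p = 0.0312 by the exact permutation test.

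In this respect DQ52 resembled DST4 more than the larger families. The productive share was 73.8% for DFL16, 68.9% for DSP2 and 81.4% for DST4. DQ52 was higher by 9.19 and 14.04 points than the first 2 (exact permutation, adjusted p = 0.0312 each), and its difference of 1.53 points from DST4 did not pass (exact permutation p = 0.156, adjusted p = 0.234). Among DQ52 joins the productive share was 88.5% ± 0.855 with Ighj1, 82.4% ± 1.83 with Ighj2, 76.5% ± 3.69 with Ighj3 and 86.5% ± 1.21 with Ighj4. Other D genes had 75.5%, 69.9%, 67.0% and 76.5% in that order, so Ighj3 was lowest in both classes. By aligned length, the productive share of DQ52 joins was highest at 6 bases (85.6%, Wilson interval 84.2 to 86.9) and lower on both sides, with 81.5% (79.3 to 83.6) at 5 bases, 78.6% (75.5 to 81.5) at 10 bases and 77.2% (74.4 to 79.8) at the full 11 bases.

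DQ52 was used in all 3 reading frames, with frame 2 less common among productive joins. Frame was read from the position of D against the J gene's codons, so that it is defined in out-of-frame joins too, which serve as the background. Frame 1 made up 37.9% ± 1.46 of productive and 30.4% ± 1.94 of out-of-frame joins, a difference of 7.49 points (3.94 to 11.4, higher in 6 of 6 libraries). Frame 2 made up 23.0% ± 1.16 and 30.6% ± 3.28, a difference of -7.54 points (-12.7 to -2.01, lower in 6 of 6). Both had p = 0.0312 and adjusted p = 0.0469 over 3 frames by the exact permutation test. The frame 2 test was partly set in advance, since a join that keeps its stop codon cannot be productive. The frame shares are parts of 1 whole, so the frame 1 value is not independent of it. Values for joins that cannot carry that stop are given below. Frame 3 made up 39.1% ± 2.07 and 39.1% ± 3.78 (difference 0.0507 points, -9.41 to 6.30, p = 1.00, exact permutation).

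**Figure D4:**
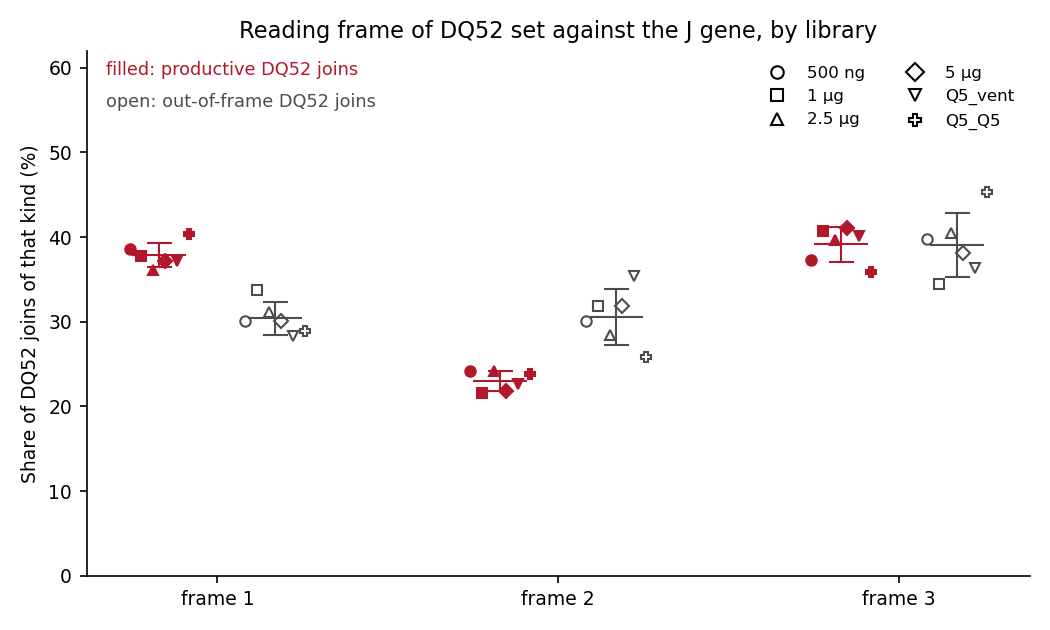
Share of each reading frame (y axis, percent) among productive (filled) and out-of-frame (open) DQ52 joins. Symbols are libraries, bars mean and SD; frame 2 averages 23.0% of productive and 30.6% of out-of-frame joins.

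The stop codon of frame 2 sets, by definition, how joins that keep it are classed. None of the 2634 productive frame 2 joins kept bases 2 to 4, whereas 25.6% of productive frame 1 joins and 29.6% of productive frame 3 joins did. In out-of-frame joins the 3 frames kept these bases in 28.6%, 31.1% and 29.3%. Of 271 joins that were in frame but not productive, 133 (49.1%) were in frame 2 and 97 of those kept the stop codon. Among joins that had lost the first 2 bases of DQ52, and so could not carry that stop, frame 2 made up 29.2% ± 1.40 of productive and 29.5% ± 6.23 of out-of-frame joins (difference -0.284 points, -6.88 to 11.6, p = 0.938, exact permutation). In the same joins frame 1 differed by 4.90 points and frame 3 by -4.62 points (adjusted p = 0.0938 and 0.188, exact permutation).

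The most frequent stretch of DQ52 in each productive frame is shown on the germline letters, with the aligned part in capitals, to set the kept bases beside the codons.

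frame 1: ctaACTGGGAC
frame 2: ctAACTGGGAC
frame 3: ctAACTGGGAC

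The first was in 541 of 4322 frame 1 joins (12.5%), the second in 570 of 2634 frame 2 joins (21.6%) and the third in 669 of 4658 frame 3 joins (14.4%). In frame 2 the leading stretch begins at base 3, just inside the stop codon. All 3 frames had the same 3 leading stretches, those from base 3, 4 or 5 to base 11.

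Frame use was more even in DQ52 and DST4 than in the larger families. Each D gene was described by the frame it used most over the 6 libraries pooled, so these values were chosen by the measure itself and carry no test. For DQ52 this was frame 3, with 39.1% ± 2.07 of productive joins, although frame 1 was ahead of it in the 500 ng library (38.6% against 37.2%) and in Q5_Q5 (40.3% against 35.9%). The frame most used by each gene held 45.1% for DST4, 70.1% for DFL16 and 85.5% for DSP2, and 74.9% ± 0.348 over all other D genes.

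The residues that germline DQ52 encodes were frequent in its productive CDR3 and rare in that of other D genes. NWD, the whole of frame 3, was in 13.3% ± 1.58 of productive DQ52 joins and 0.0756% of productive joins of other D genes. LTG, the whole of frame 1, was in 8.17% ± 0.882 and 0.0452%. Shorter parts were more common, TG in 30.4% against 3.37%, WD in 25.4% against 1.38%, NW in 22.4% against 1.14% and LG, the readable part of frame 2, in 20.5% against 2.08%. Joins are called DQ52 by matching these same bases, so the differences are a description of what the call brings with it and carry no test. By frame, TG was in 77.8% of frame 1 joins, LG in 84.6% of frame 2 joins and WD in 65.5% of frame 3 joins.

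V partners of DQ52 were broadly those of other D genes, with departures at single V genes. The 10 V genes used most by DQ52 made up 27.9% of its joins and 27.1% of other joins. By position in the locus, the D-proximal families Ighv2 and Ighv5 made up 13.5% ± 0.877 of DQ52 joins and 14.1% ± 0.145 of other joins, the middle families 25.3% ± 0.887 and 23.5% ± 0.287, and the distal families Ighv1 and Ighv8 61.2% ± 1.63 and 62.4% ± 0.251. None of these passed (exact permutation, adjusted p = 0.141, 0.141 and 0.156 over 3 regions). Among productive joins alone, DQ52 differed by 1.06, 2.54 and -3.59 points (exact permutation, adjusted p = 0.0312 each), with the proximal difference of opposite sign to that over all joins.

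By V family, Ighv6 (4.01% ± 0.877 against 2.63%), Ighv12 (1.71% ± 0.262 against 0.869%), Ighv10 (3.39% ± 0.516 against 2.59%) and Ighv7 (2.21% ± 0.452 against 1.43%) were more used with DQ52 in 6 of 6 libraries. Ighv2 (4.69% ± 0.464 against 5.61%), Ighv14 (2.40% ± 0.411 against 3.17%) and Ighv9 (3.28% ± 0.471 against 3.95%) were less used in 6 of 6. Each had p = 0.0312 in the exact permutation test and adjusted p = 0.0670 over 15 families, so 7 of 15 were under 0.05 before adjustment and 0 after it. Ighv1, the largest family, was at 55.5% ± 1.80 and 57.0% ± 0.310 (p = 0.125, exact permutation).

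At the level of single V genes, limma voom with the library as a block tested 88 genes with at least 500 sequences, and 22 (25% of those tested) differed at an adjusted p under 0.05. There were 9 genes more used with DQ52 (10.2%) and 13 less used (14.8%). The ranges over libraries did not overlap for 4 of the 9 and 5 of the 13, and over all 88 tested genes the counts were also 4 and 5. The count moved with the libraries used: without the 5 µg library 8 genes were called (4 higher and 4 lower), and without the 2.5 µg library 13. With D alignments of at least 8 bases 4 genes were called, all higher, and 0 lower (limma voom, 9 lower at an unadjusted p under 0.05).

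The genes more used with DQ52 were led by Ighv12-3 (chr12:114366526-114366819), at 1.64% ± 0.207 of DQ52 joins and 0.767% ± 0.0781 of other joins (log2 ratio 1.10, SE 0.12), a call that was lost without clones found in 2 or more libraries (log2 ratio -0.068). Ighv6-6 was at 1.90% ± 0.605 and 1.06% ± 0.114 (log2 ratio 0.75, SE 0.12), Ighv7-3 at 1.38% ± 0.267 and 0.832% ± 0.0589 (0.73, SE 0.13), Ighv8-12 at 2.24% ± 0.291 and 1.53% ± 0.0983 (0.53, SE 0.11) and Ighv10-1 at 1.91% ± 0.230 and 1.44% ± 0.0925 (0.43, SE 0.12). Those 5 were higher in 6 of 6 libraries. Ighv6-3 (log2 ratio 0.64), Ighv1-62-2 (0.39) and Ighv5-17 (0.39) were higher in 4 of 6 and Ighv1-66 (0.47) in 3 of 6. Among the less used genes, Ighv1-70 (log2 ratio -1.22, SE 0.24), Ighv2-6 (-0.93), Ighv1-67 (-0.87), Ighv9-2 (-0.72), Ighv3-3 (-0.69) and Ighv14-4 (-0.55) were lower in 6 of 6 libraries. Ighv8-11 (-0.92), Ighv1-11 (-0.78), Ighv8-2 (-0.74), Ighv11-2 (-0.66), Ighv1-4 (-0.62), Ighv1-49 (-0.62) and Ighv14-1 (-0.53) were lower in 5 of 6.

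The genes used most by DQ52 showed no such shift. Ighv1-26 (chr12:114788372-114788665) was first, at 4.91% ± 0.755 of DQ52 joins and 5.08% ± 0.134 of other joins (log2 ratio -0.07, SE 0.09, adjusted p = 0.641, limma voom), and Ighv3-6 second at 3.26% ± 0.426 and 2.97% ± 0.143 (0.16, SE 0.10). Of the 10 most used genes 9 did not pass, and Ighv6-3 did. Ighv5-2, the D-proximal gene also called 81X and rarely productive, was at 1.48% ± 0.261 and 1.78% ± 0.150 (log2 ratio -0.25, adjusted p = 0.152, limma voom).

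**Figure D5:**
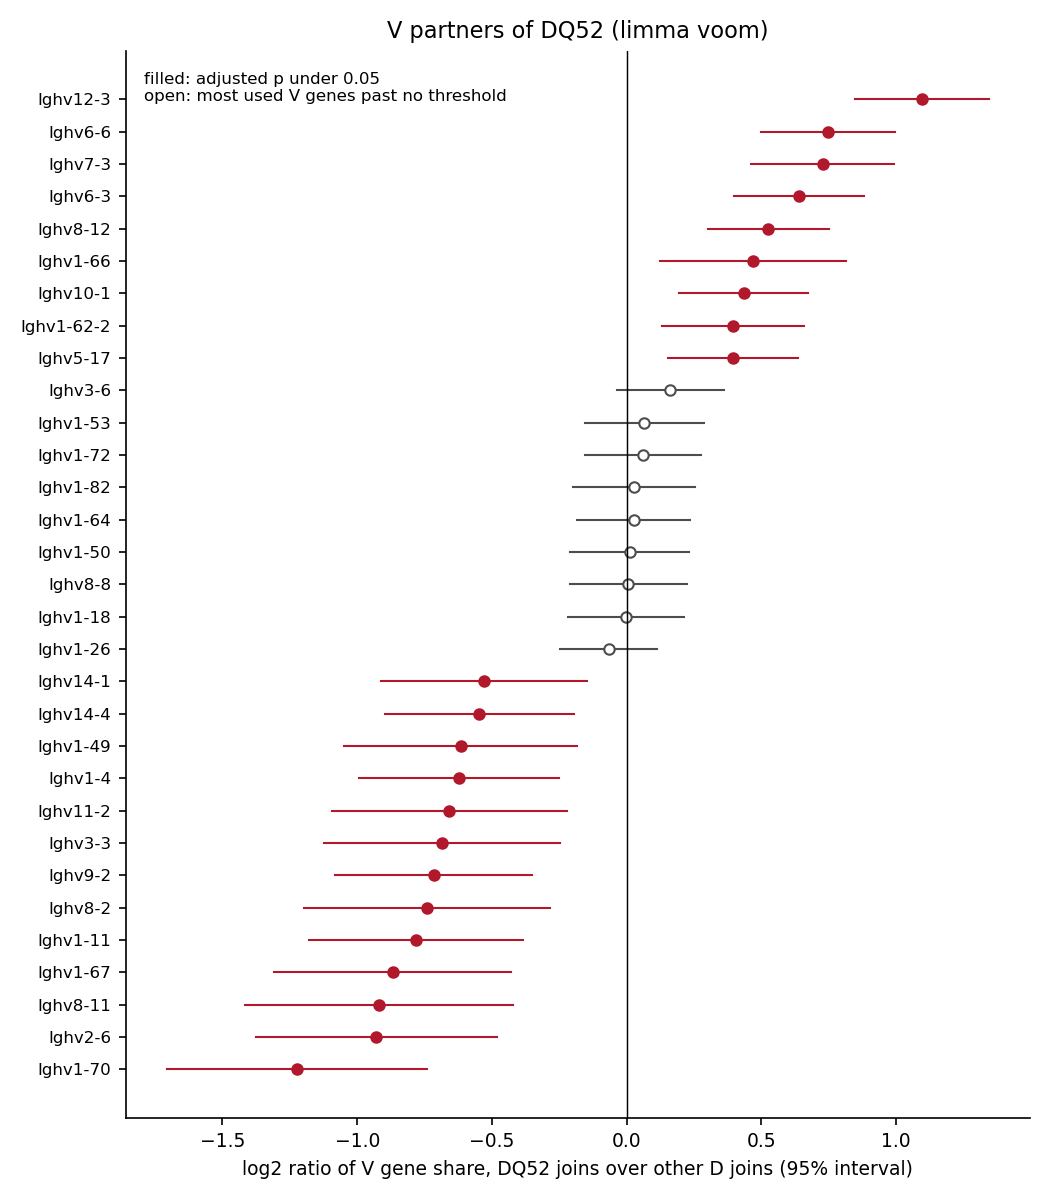
log2 ratio of the V gene's share in DQ52 joins over its share in joins of other D genes (x axis, point and 95% interval from limma voom) for the 22 genes that passed (filled) and the 9 most used genes that did not (open). Ighv12-3 is highest at 1.10 (-0.068 without clones found in 2 or more libraries) and Ighv1-70 lowest at -1.22.

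The called genes differed in how often they give productive joins with other D genes, a measure whose relation to the calls was not tested. Of the 9 genes more used with DQ52, 8 were productive in 50% or more of their joins with other D genes (Ighv12-3, at 17.2%, was not), and of the 13 less used genes 9 were below 50%. The same count was not made over all 88 tested genes, so neither number has a background to be set against. Over all V genes 72.0% of joins of other D genes were productive. Ighv1-70, Ighv1-11 and Ighv3-3 were productive in 9.53%, 5.82% and 11.8% of such joins. DQ52 joins were productive more often in general, as given above. In productive joins alone 67 V genes could be tested and 12 were called, 6 higher (5 of them among the 9, of which 8 were tested) and 6 lower (4 of them among the 13, of which 4 were tested). In out-of-frame joins alone 36 genes could be tested and limma voom called 0, with 2 higher and 0 lower at an unadjusted p under 0.05. Only 3 of the 9 and 6 of the 13 were among the tested genes, and 3 and 5 of these kept their direction. Most of the called genes were thus not tested in out-of-frame joins.

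Ighv12-3 is the V gene of B-1 cells that bind phosphatidylcholine, known for a CDR3 of 10 residues with glycine at the 4th place after the residues AG that the V gene gives (10/G4). DQ52 was the D gene in 9 of 74, 19 of 152, 52 of 463 and 118 of 952 Ighv12-3 joins in order of DNA amount, in 22 of 158 joins of Q5_vent and in 12 of 99 of Q5_Q5. That is 12.2%, 12.5%, 11.2%, 12.4%, 13.9% and 12.1%, against 5.93% to 6.22% of joins of other V genes. The higher share was not seen without the clones found in 2 or more libraries: the shares were then 5.66%, 5.56%, 5.76%, 5.36%, 7.20% and 4.94%, and the log2 ratio of Ighv12-3 was -0.068 (adjusted p = 0.791, limma voom).

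Counted by sequence, Ighv12-3 joins were mostly productive with DQ52 and mostly not with other D genes. By clone over the pooled libraries, 36 of 95 were productive with DQ52 and 149 of 1414 with other D genes. The productive share was 70.2% with DQ52 and 18.7% with other D genes as a mean of 6 libraries (higher in 6 of 6, exact permutation p = 0.0312), and with each clone counted once per library 49.3% against 16.6% (exact permutation p = 0.0312). The DQ52 values rest on 7 (500 ng) to 51 (5 µg) clones per library. Clones found in several libraries, 1 of them in all 6, enter more than 1 of these values. The libraries are therefore not independent in these tests. Of 172 productive Ighv12-3 joins with DQ52, 166 (96.5%, Wilson interval 92.6 to 98.4) had a CDR3 of 12 residues with glycine at position 6, which is the 10/G4 form, against 215 of 273 (78.8%, 73.5 to 83.2) with other D genes. By clone these were 30 of 36 (83.3%, 68.1 to 92.1) and 99 of 149 (66.4%, 58.5 to 73.5), and these intervals overlapped. Frame 1 was the frame of 141 of the 172, and Ighj4 was the partner in 118 and Ighj1 in 64 of all 232 Ighv12-3 joins with DQ52. A single clone of 104 sequences carries the Ighj4 count: without it Ighj4 was the partner in 14 of 128 joins (10.9%, against 21.2% with other D genes) and frame 1 was the frame of 38 of 69 productive joins. By clone, Ighj4 was the partner in 15 and Ighj1 in 31 of 95, and frame 1 was the frame of 25 of 36 productive clones. Ighv11-2, the other V gene of phosphatidylcholine-binding B-1 cells, was less used with DQ52 by sequence (38 joins, log2 ratio -0.66). Of its 38 joins 9 (23.7%) were productive, against 349 of 892 (39.1%) with other D genes. These joins were 38 and 638 clones, of which 9 and 112 were productive, so repeated clones enter only the values of other D genes.

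Few DQ52 clones recurred between libraries, at a rate close to that of other D genes. Of 13561 DQ52 clones 109 were in 2 or more libraries (0.804%, Wilson interval 0.667 to 0.969), against 1505 of 197118 (0.764%, 0.726 to 0.803). Ighv12-3 made up 11 of those 109 (10.1%, 5.73 to 17.2) and 84 of 13452 clones found in 1 library (0.624%, 0.505 to 0.772). Recurring clones also had no base on either side of D in 10 of 109 (9.17%, 5.06 to 16.1), against 1.26% (1.09 to 1.47) of the rest. Whether these are the same cells' progeny in shared DNA or separate joins cannot be told apart here.

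The CDR3 of the clones found in most libraries is shown with the bases aligned to DQ52 in capitals. Some of them use Ighv12-3, whose call was lost without clones found in 2 or more libraries, 11 of which use that gene.

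Ighv12-3 to Ighj4: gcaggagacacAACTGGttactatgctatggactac
Ighv7-3 to Ighj4: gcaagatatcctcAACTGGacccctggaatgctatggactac
Ighv12-3 to Ighj1: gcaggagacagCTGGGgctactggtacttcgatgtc
Ighv12-3 to Ighj1, second clone: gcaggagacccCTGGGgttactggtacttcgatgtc
Ighv1-54 to Ighj1: gcaagaacCTGGGactggtacttcgatgtc

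The first was the only DQ52 clone in all 6 libraries, with 104 sequences (2, 10, 22 and 54 in order of DNA amount, 11 for Q5_vent and 5 for Q5_Q5). It is in frame 1 and encodes 12 residues, and by the deposited calls no base lies between its segments. The c before its capitals reads as the first base of allele 02 and is not a DQ52 base on the numbering of allele 01. The others were each in 4 libraries with 9, 6, 5 and 4 sequences, so the first stood well apart from them. Of the 5, 3 use Ighv12-3, and all 5 were productive.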

How the data were processed

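The members and lists used here were chosen with earlier results of these data known. The deposited files hold 1 row per deduplicated sequence with V, D and J calls, a CDR3 and frame flags, per the file headers. Per the submitters' processing notes, mm10, Bowtie2 2.3.2 and Trim Galore 0.4.4 were used. A column name mentions IgBLAST, with its version not given in the sources used here. The deposited V identity is a fraction from 0 to 1, used only to mark V mismatches, and the other deposited columns used are lengths and positions in bases, per the file headers. The number of columns of per-sample values not used was 0.

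Shares and means were computed per library for DQ52 joins and for joins of all other called D genes, and the difference was tested over the 6 libraries by an exact two-sided sign-flip permutation test, adjusted (Benjamini-Hochberg) within each family of measures: 4 J genes, 3 V regions, 3 functions, 7 lengths, 3 frames. Calls naming allele 02 alone were put on the numbering of allele 01. V genes (first call, alleles merged) with at least 500 sequences were tested with limma 3.58.1 voom, the library as a block, at an adjusted p of 0.05. Genes named are every J gene, the V families, the 10 most used V genes, up to 10 called genes in each direction by log2 ratio (3 more lower genes are named to complete that count), Ighv5-2, Ighv11-2 and Ighv12-3, and the 5 clones in most libraries; the J split by function, the residues and the V mismatches were added after values were seen. Depth was 8704 to 112320 sequences, and a count of 0 among DQ52 joins sets an upper limit (3 counts) of 0.576% in the 500 ng and 0.0446% in the 5 µg library. Alternatives were 1 count per clone, calls naming 1 D gene or 1 V gene, no unclear primer tags, D alignments of at least 8 bases, no clones found in 2 or more libraries, single D families, other minimum numbers (200 or 1000) per V gene and leaving out each library; productive or out-of-frame joins alone for shares and lengths, the allele 02 base as untemplated, Ighv12-3 partners without its largest clone and frames without the first 2 bases were added after seeing the data. The tests were tested on simulated data. Software was R 4.3.3 and Python 3.11.15 with NumPy 2.4.6, pandas 2.3.3, matplotlib 3.10.9 and SciPy 1.17.1.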

Additional observations from a re-analysis of the deposited data

How the results depend on the processing

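The higher Ighj2 share, the lower Ighj4 share and the shorter CDR3 kept their direction and their call under every alternative that was tested, and the productive share did except against DST4 alone. Values of the planned comparisons that did not keep both follow, as differences in points or bases by exact permutation test; the cause was not tested. Leaving out each library was not a test, since 5 libraries cannot give a p under 0.0625; it left 8 to 22 V genes called, 4 to 9 of them higher and 4 to 13 lower.

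With 1 count per clone, joins with no base on both sides differed by 0.267, and Ighj1, Ighj3 and Ighj4 between productive and out-of-frame joins by 5.92, -9.27 and 5.18. With calls naming 1 D gene, Ighj3 differed by 1.20, D-proximal V by 0.713 and D to J bases by 0.283. Without unclear primer tags, joins with no base on both sides differed by 0.871, frame 3 by -0.190, and Ighj1 to Ighj4 by function by 4.72, 3.19, -11.5 and 3.63. With D alignments of at least 8 bases, Ighj3 differed by -0.819, D to J bases by 0.207, joins with no base on both sides by -0.369, and Ighj1, Ighj3 and Ighj4 by function by 5.65, -7.26 and 4.28. Without clones in 2 or more libraries, joins with no base on both sides differed by 0.109.

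Against DSP2, Ighj1 differed by 0.842, D-proximal V by -2.47, distal V by 1.20 and D to J bases by -0.289. Against DFL16, Ighj3 differed by 4.16, D-proximal V by 1.10 and D to J bases by 0.309. Against DST4, Ighj1 differed by 7.65, D-proximal, middle and distal V by 0.391, 4.81 and -5.20, productive, out-of-frame and in-frame non-productive shares by 1.53, -1.79 and 0.265, V to D and D to J bases by 0.378 and -0.335, and joins with no base on both sides by 0.836.

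In productive joins, D-proximal, middle and distal V differed by 1.06, 2.54 and -3.59 and D to J bases by 0.0710. In out-of-frame joins, Ighj3 differed by 1.33, V to D bases by -0.432, 5′ and 3′ trimming by -1.97 and -2.01 and joins with no base on both sides by 0.389. With the first base of allele 02 calls counted as untemplated, V to D bases differed by -0.319 and joins with no base on both sides by 0.0292.

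V genes called by limma voom were 4 (4 higher, 0 lower, with 9 lower at an unadjusted p under 0.05) with D alignments of at least 8 bases, 14 (7 lower) with at least 1000 sequences per gene, 12 (6 lower) in productive joins and 0 (0 higher, 0 lower) in out-of-frame joins. In out-of-frame joins only 36 genes could be tested. Lower calls were 7 with calls naming 1 D gene and 8 with calls naming 1 V gene. Ighv12-3 had a log2 ratio of -0.068 without clones in 2 or more libraries and Ighv8-2 of 0.13 in out-of-frame joins. The depth of 521 DQ52 joins at 500 ng limits that library's values. All tests are paired within libraries; beyond that, no paired analysis was possible because each group has 1 library and the labels give no replicate numbers.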

Other observations

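Mismatches to the germline V gene were in 8.73% ± 1.22 of DQ52 joins and 7.76% ± 1.77 of joins of other D genes (SD, n = 6 libraries). The mean difference was 0.972 points, higher in 5 of 6 (exact permutation p = 0.0625). It came mainly from Q5_vent (2.38 points, interval 0.648 to 4.11) and Q5_Q5 (2.28 points, interval 0.647 to 3.91). In order of DNA amount the other libraries gave 0.425, -0.0640, 0.196 and 0.618 points, each with an interval that spanned both signs. Why the libraries differed was not tested. The difference was positive in 6 of 6 libraries (exact permutation, adjusted p = 0.0312) in 6 alternatives: 1.08 points with calls naming 1 D gene, 0.9499 without unclear primer tags, 1.18 against DFL16, 1.46 against DST4, 1.46 in productive and 2.20 in out-of-frame joins. It did not pass in 4 others, with 0.962 points for 1 count per clone, 0.786 with D alignments of at least 8 bases, 0.715 without clones found in 2 or more libraries and 0.749 against DSP2. Of the DQ52 calls, 121 (0.866%) also named another D gene.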
